A study of Mus musculus with 20 samples.

Results

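The voltage-gated and potassium channel genes of the mouse hippocampus were taken as the protein-coding genes whose symbols begin with Kcn, Hcn, Cacna1 or Cacna2d, or are Scn with a number and a or b, and that reached 10 counts in at least 5 of 20 libraries. Among the 49671 genes counted, 126 protein-coding genes had such names, and 14 of these fell below the minimum, which left the members described here. The rule used the names and a count minimum, and no comparison between groups. The 14 candidates below the minimum were Kcna7, Kcna10, Kcne1, Kcne3, Kcnj1, Kcnj15, Kcnk7, Kcnk15, Kcnk16, Kcnk18, Kcnmb3, Kcnv2, Scn4a and Scn11a. Of the members, 9 had fewer than 10 counts in at least 1 of the 20 libraries, and every member passed the filter on low counts in the gene tests.

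RNA came from 1 frozen hippocampus of each of 20 male wild-type mice, 10 to 12 weeks old, with 5 mice in each of 4 groups. Control mice had no tumour and were given isotype-matched antibody. Mice of the ICI group had no tumour and were given immune checkpoint inhibitors, that is, anti-CTLA-4 at 1 mg per dose on 3 occasions a week and anti-PD-1 at 200 µg per dose on 2 occasions a week. Melanoma mice carried intradermal tumours of D4M-3A.UV2, a syngeneic mouse melanoma cell line, injected on both sides at 500000 cells 1 week before treatment, and were given isotype antibody. Melanoma plus ICI mice carried the same tumours and were given both checkpoint antibodies, for 3 weeks per the labels. Tissue was collected 72 hours after dosing ended. The model is 1 tumour line in 1 sex, and the tumours lay outside the brain. In bulk tissue, fewer cells of a type and less RNA per cell cannot be told apart.

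Voltage-gated channels open when the membrane potential changes. Sodium channels carry the upstroke of the action potential, calcium channels couple depolarisation to transmitter release and signalling, and potassium channels repolarise the membrane and set its resting level. HCN channels open on hyperpolarisation and pace rhythmic firing. In the hippocampus these families set how readily pyramidal and granule neurons fire, while several inward rectifiers serve glia and the choroid plexus.

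Each library held between 21990624 and 25735149 counts, and the channel members took between 0.744% and 1.01% of them. Marker lists for field CA1, dentate gyrus, and pyramidal and granule neurons were present in every library, at lowest scores of 5.62, 2.56 and 8.65 (mean log2 CPM, counts scaled to 1000000 per library, over each list). On the first principal component of all tested genes, which held 23.4% of the variance, control replicate 4 was at -71.4 and replicate 1 of melanoma plus ICI at -61.5, where the other 18 libraries lay between -27.5 and 40.9. These were also the libraries with the lowest summed level of the members, 4580 and 5082 TPM (CPM divided by gene length and scaled to the same total). Melanoma replicates 1, 3 and 5 and melanoma plus ICI replicate 3 had striatum scores above 5. The choroid plexus score ran from 0.55 to 7.04.

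Levels between genes were compared in TPM, as the mean ± SD over the 20 libraries. Summed over the members the level was 5816 ± 522 TPM, and the 10 most abundant members held 44.6% of it. There were 17 members at 100 TPM or more, 63 between 10 and 100, 24 between 1 and 10, and 8 below 1. The 37 voltage-gated potassium (Kv) subunits, both pore-forming and modifying, held 25.9% of the summed level and the 4 sodium channel beta subunits 21.98%. The 14 potassium channel auxiliary subunits held 17.0% and the 13 inward rectifiers 10.2%.

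Among sodium channel genes, the beta subunits, which steer the pore subunits to the membrane and adjust their gating, included Scn2b at 251 ± 19.3 TPM (SD, n = 20), Scn3b at 144 ± 52.4 and Scn4b at 44.3 ± 48.9 TPM. The pore subunit of mature axon initial segments and nodes, Scn8a, stood at 102.8 ± 19.6 TPM, Scn2a at 76.5 ± 12.2 and Scn1a, the pore best known from inhibitory interneurons, at 34.6 ± 8.60. Scn3a, which is known mainly from the developing brain, was at 14.1 ± 3.58 TPM. The gap from Scn8a to Scn2a exceeded the SD of either, and Scn7a, Scn9a and Scn10a were at 1.76, 1.23 and 0.132 TPM.

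Among calcium channel pores, Cacna1a, the P/Q-type pore of presynaptic terminals, was at 70.4 ± 14.4 TPM and the T-type Cacna1h at 69.0 ± 28.4. The N-type Cacna1b was at 62.98 ± 13.9 and the R-type Cacna1e at 62.5 ± 17.7 TPM, so these 4 neighbours in the order did not differ beyond their spread. The L-type pair Cacna1d and Cacna1c was at 26.8 ± 5.53 and 23.8 ± 6.73 TPM. Cacna1f of the retina and Cacna1s of skeletal muscle were at 0.471 and 0.210 TPM. Among the alpha2delta subunits, which carry the pores to the surface, Cacna2d3 led at 102.4 ± 16.4 TPM, above Cacna2d1 at 46.0 ± 6.61 and Cacna2d2 at 27.7 ± 12.7.

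Of the HCN genes, Hcn2 stood at 139 ± 16.9 TPM, with Hcn3 at 14.8 ± 2.76 and Hcn4 at 2.66 ± 1.48. Among the Kv pores, Kcnh3 was at 130 ± 27.3 TPM. Kcnd2, the main A-type pore of pyramidal cell dendrites, was at 79.5 ± 17.2 TPM, and the axonal pores Kcna2 and Kcna1 at 70.8 ± 12.5 and 66.3 ± 21.1. Kcnq3, a pore subunit of the M-current, was at 45.6 ± 11.5 TPM. The auxiliary subunits were led by Kcnab2 at 481 ± 121 TPM, a cytoplasmic beta subunit of Kv1 channels, and by Kcnip2 at 189 ± 39.6, which binds Kv4 pores.

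The calcium-activated and sodium-activated group was led by Kcnt1 at 52.8 ± 21 TPM, with the large-conductance pore Kcnma1 at 30.2 ± 12.9 and the small-conductance pore Kcnn2 at 29.1 ± 3.85, which shapes the afterhyperpolarisation. Among inward rectifiers, Kcnj4 was at 143 ± 31.0 TPM and the G protein-gated subunit Kcnj9 at 123 ± 28.7. Its partners Kcnj3 and Kcnj6 were at 66.6 ± 8.09 and 25.4 ± 11.3 TPM, and Kcnj10, the main inward rectifier of astrocytes, was at 103.9 ± 21.1. The K2P leak channels were led by Kcnk1 at 137 ± 25.2 TPM, then Kcnk9, the acid-sensitive TASK-3 pore, at 53.1 ± 22.2 and Kcnk2 at 37.0 ± 4.498. The lowest members of all were Scn10a, Cacna1s and Kcnn4, the last at 0.282 TPM.

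**Figure D1:**
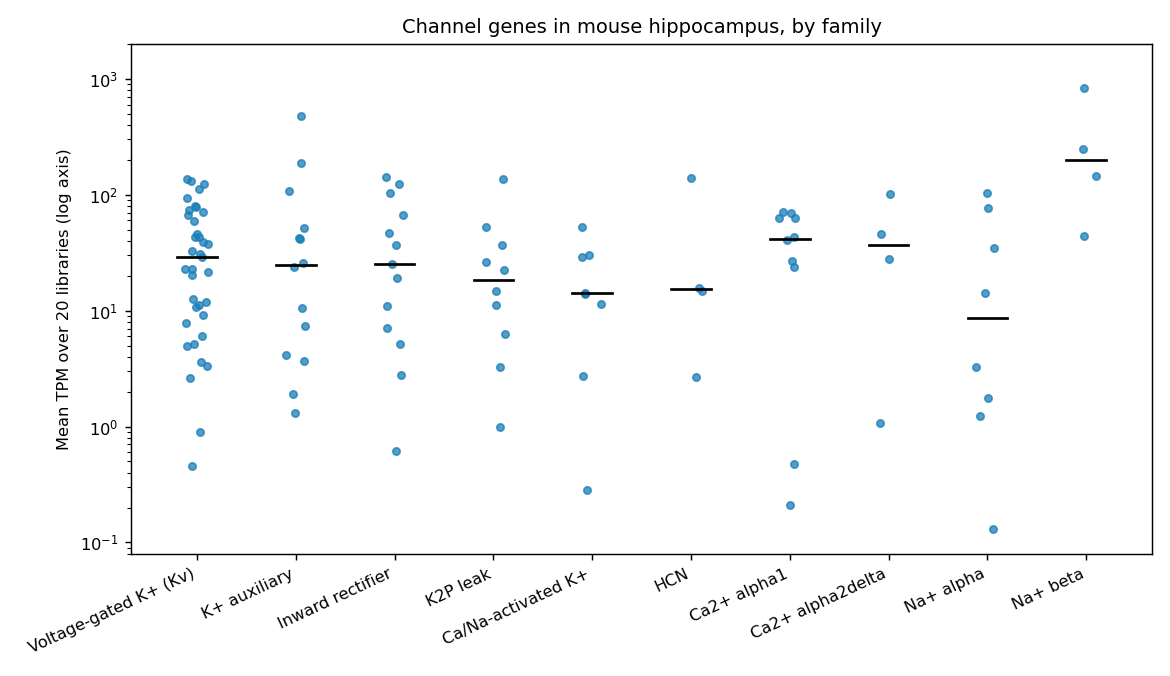
Mean level of each member over the 20 libraries, in TPM on a log axis, with 1 column per family, 1 point per gene and a bar at the family median. There are 17 points at 100 TPM or more and 8 below 1, and the lowest is Scn10a, at 0.132 TPM.

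Summed over the members, the level was 5730 ± 712 TPM in control, 6093 ± 207 in ICI-treated, 5886 ± 405 in tumour-bearing and 5555 ± 622 in tumour-bearing treated mice (SD, n = 5 each). The summed level of the 10 calcium channel pores was 371 ± 117, 457 ± 31.0, 424 ± 29.99 and 348 ± 84.0 TPM in the same order, and that of the 8 sodium channel pores 218 ± 36.8, 263 ± 27.98, 236 ± 28.3 and 220 ± 31.3. Both sums were lowest in the control and the melanoma plus ICI group, the groups that hold control replicate 4 and melanoma plus ICI replicate 1, and these sums were not tested. Without these 2 libraries the calcium channel pores summed to 419 ± 48.4 TPM in control and 384 ± 29.0 in melanoma plus ICI mice, and the sodium channel pores to 233 ± 18.7 and 231 ± 22.5 (SD, n = 4 each).

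The members' spread between libraries was set beside that of all genes at the same minimum level. Leaving out the 8 members with a mean below 1 CPM, the median SD of log2 CPM over the 20 libraries was 0.34, against 0.23 over 15515 such genes. The SD exceeded 0.5 in 28 of them (26.9%, against 11.7% of all such genes) and exceeded 1 in 4 (3.85%, against 1.53%). Control replicate 4 was the lowest library for 28 members (25%), beside 19.7% of all tested genes. It and replicate 1 of melanoma plus ICI were the lowest pair for 19 members (17.0%, beside 14.7% of all tested genes). Kcnk9 was at 1.52 CPM in the former and 4.68 in the latter, where the other 18 libraries lay between 10.9 and 27.6. Kcna1 was at 21.1 and 33.7 CPM in those libraries, and between 58.0 and 118 in the others. The library most often highest was melanoma plus ICI replicate 3, for 28 members (25%), beside 9.33% of all tested genes.

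The widest range belonged to Kcne2 and Kcnj13. Kcne2 encodes a single-pass beta subunit of potassium channels, and Kcnj13 the inward rectifier Kir7.1, and both are known from choroid plexus epithelium. Kcne2 was at 0.196, 40.4, 18.8, 0.185 and 32.4 CPM in control replicates 1 to 5, and at 0.214, 4.72, 1.38, 12.5 and 12.6 in ICI. In melanoma it was at 1.56, 0.213, 0.693, 21.04 and 5.47 CPM, and in melanoma plus ICI at 0.657, 7.37, 20.4, 49.6 and 12.9. High and low libraries occurred in all 4 groups, which overlapped, and the highest was 269-fold above the lowest. Kcnj13 ran over the same libraries from 0.369 CPM in control replicate 4 to 46.3 in control replicate 2, a 126-fold range.

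Kcne2 and Kcnj13 followed the choroid plexus score, the mean log2 CPM of Ttr, Folr1, Clic6, Kl, Otx2, Aqp1 and Prlr. For Kcne2, Pearson's r was 0.986 and Spearman's rho 0.976 over the 20 libraries (permutation test, 100000 resamples, two-sided, p = 1e-05, the smallest it can give, adjusted 4e-05 over 8 pairs). For Kcnj13, r was 0.966 and rho 0.968, with the same permutation p. Without the 2 libraries farthest from the median score, r was 0.988 and 0.981, and with the group means subtracted 0.987 and 0.963. Groups of 5 are too small for an r within each. The exons of Kcnj13 share 49.1% of their bases with Gigyf2 on the opposite strand, whose counts were 747% of those of Kcnj13. Since strand use is not given in the sources used here, reads of this pair in the shared bases could not be told apart. Kcnj13 itself had 8 counts in control replicate 4 and 13 in ICI replicate 1, and the part of Gigyf2 reads in its counts was not tested. Of the other members named, Kcna6 shares 39.6%, Kcnj3 31.1%, Cacna1s 19.985%, Hcn3 17.1% and Kcnk2 12.2% of its exonic bases with a gene on the opposite strand, with counts there of 2.16%, 18.8%, 19.9%, 1.27% and 4.66% of its own.

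The promoters of these genes and of the neighbours Scn2b and Scn4b (described next) are shown because the members of each pair differ or coincide in level. Each run is 300 bases, 250 before and 50 after a RefSeq start on GRCm38.p6, written 5′ to 3′ on the strand of the gene, with CG dinucleotides in capitals. The Kcne2 window (chr16:92292139-92292438, plus strand) is the first of its RefSeq starts and holds 9 CG. The Kcnj13 window (chr1:87394680-87394979, minus strand) holds 5 CG and the letters TATAAA.
Kcne2: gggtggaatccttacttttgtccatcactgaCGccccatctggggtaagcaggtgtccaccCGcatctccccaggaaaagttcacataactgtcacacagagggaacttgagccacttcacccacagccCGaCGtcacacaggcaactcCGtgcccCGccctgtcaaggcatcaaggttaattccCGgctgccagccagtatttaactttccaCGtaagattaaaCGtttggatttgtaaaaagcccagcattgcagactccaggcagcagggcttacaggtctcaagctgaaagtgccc
Kcnj13: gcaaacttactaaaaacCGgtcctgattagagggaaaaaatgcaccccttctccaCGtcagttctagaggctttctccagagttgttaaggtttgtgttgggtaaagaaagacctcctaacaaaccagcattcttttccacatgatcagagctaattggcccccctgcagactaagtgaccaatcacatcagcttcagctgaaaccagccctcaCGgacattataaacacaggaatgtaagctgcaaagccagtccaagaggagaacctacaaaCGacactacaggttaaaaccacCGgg

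Scn2b and Scn4b lie 8325 bases apart on chromosome 9 in the coordinates of the deposited tables, on the same strand. Scn2b spans 45117782 to 45130070 and Scn4b 45138395 to 45154152. The Scn2b window (chr9:45117626-45117925) holds 2 CG at 38.3% GC and the Scn4b window (chr9:45138374-45138673) 26 CG at 66.3% GC, both on the plus strand.
Scn2b: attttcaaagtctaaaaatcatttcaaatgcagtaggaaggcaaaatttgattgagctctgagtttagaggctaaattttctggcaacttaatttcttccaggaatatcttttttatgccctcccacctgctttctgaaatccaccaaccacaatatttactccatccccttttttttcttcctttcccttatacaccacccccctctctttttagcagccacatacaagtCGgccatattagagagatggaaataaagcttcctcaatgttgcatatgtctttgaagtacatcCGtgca
Scn4b: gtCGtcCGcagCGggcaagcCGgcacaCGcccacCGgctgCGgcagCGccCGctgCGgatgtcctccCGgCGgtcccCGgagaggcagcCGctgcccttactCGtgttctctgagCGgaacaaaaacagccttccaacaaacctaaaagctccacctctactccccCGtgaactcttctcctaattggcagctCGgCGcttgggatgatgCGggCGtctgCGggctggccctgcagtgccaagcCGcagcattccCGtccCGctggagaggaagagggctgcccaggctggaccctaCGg

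RefSeq windows were found for 79 members, 108 windows in all. Their median was 10 CG, against 7 over 32851 windows of 27025 genes, with a median GC of 59% against 52.7%. No member window lacked a CG, against 5.43% of all windows. The letters TATAAA, searched on both strands, occurred in 6 member windows (5.56%), against 13.6% of all. A match describes the letters of the window only.

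Despite their proximity, Scn2b was the most even of the members and Scn4b among the most uneven. Scn2b lay between 279 and 352 CPM over the 20 libraries, an SD of 0.0885 on the log2 scale. Scn4b, whose product speeds recovery from inactivation and is abundant in striatal projection neurons, had an SD of 1.38. It was at 20.2, 38.3, 18.2, 49.7 and 64.3 CPM in control replicates 1 to 5 and at 10.9, 28.03, 37.9, 35.5 and 26.9 in ICI. In melanoma it was at 126, 47.4, 213, 23.7 and 154 CPM, and in melanoma plus ICI at 48.1, 7.66, 216, 10.98 and 17.0. The 4 highest values were those of the 4 libraries with a striatum score above 5, and the other 16 lay between 7.66 and 64.3. Within those 16, r between Scn4b and the striatum score was -0.47 and rho -0.40 (permutation test, p = 0.0674, adjusted 0.135). A pooled r over both clusters of libraries was not computed.

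Kcna5, a Kv1 pore, was high in those 4 libraries. It was at 7.02, 14.9 and 10.5 CPM in melanoma replicates 1, 3 and 5 and at 6.503 in melanoma plus ICI replicate 3, while the other 16 libraries lay between 0.953 and 4.67. Its neighbours on chromosome 6, Kcna1 and Kcna6, were not set apart there, at 71.4 to 112.2 and 59.5 to 81.2 CPM in those 4. The other 5 pairs of a member and a cell type list, Kcnh4 with striatum over the 16 libraries, Kcnj8 with endothelium and pericytes, Kcnj10 and Kcnj16 with astrocytes and Kcnk13 with microglia, had r between 0.294 and 0.473. The largest, that of Kcnj10, had p = 0.0353 by the permutation test, adjusted 0.0941, and r was 0.183 without the 2 libraries farthest from the median score.

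**Figure D2:**
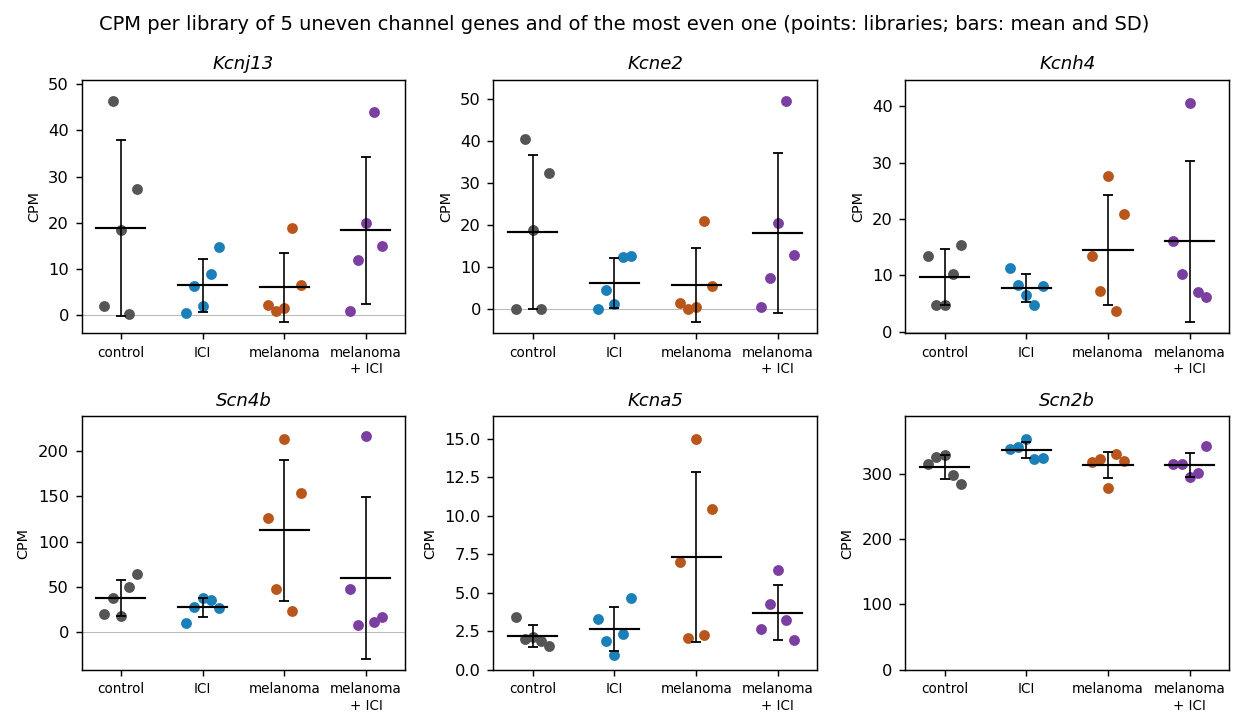
CPM of 6 members in each library (vertical axis), by group, with points for mice and a bar and whiskers for the group mean and SD. Kcne2 and Kcnj13 are scattered within every group, Scn4b and Kcna5 are high in melanoma replicates 1, 3 and 5 and melanoma plus ICI replicate 3, and Scn2b stays between 279 and 352 CPM.

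**Figure D3:**
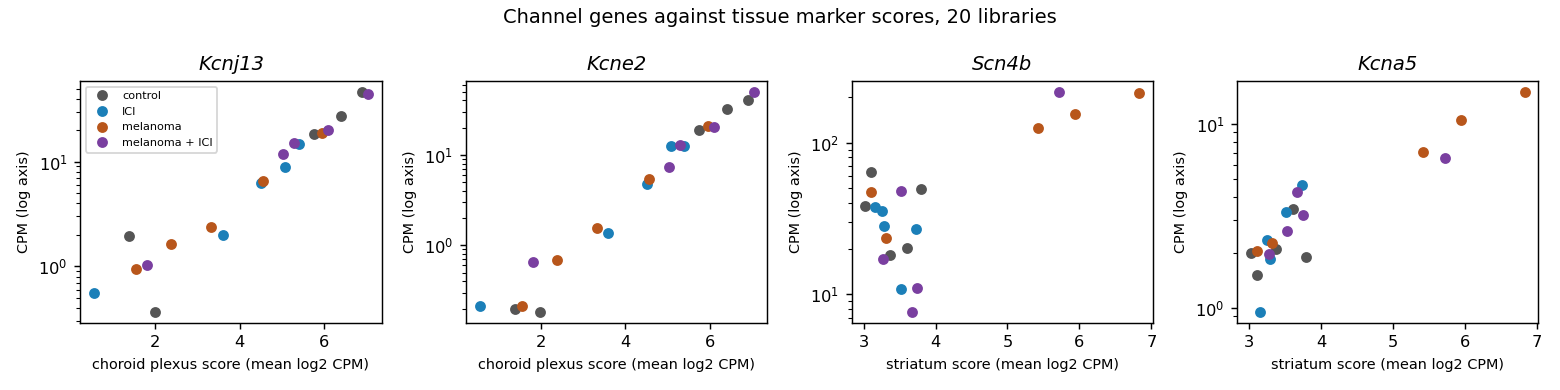
CPM on a log axis of Kcnj13 and Kcne2 against the choroid plexus score, and of Scn4b and Kcna5 against the striatum score (mean log2 CPM), with 1 point per library, coloured by group. Kcne2 and Kcnj13 follow the choroid plexus score across all groups, and the 4 libraries with a striatum score above 5 hold the 4 highest values of Scn4b and of Kcna5.

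Groups were compared gene by gene with edgeR's quasi-likelihood test over 18427 genes, with Benjamini-Hochberg adjustment within a contrast. The contrasts share libraries: the control mice and the melanoma plus ICI mice each enter 3 of the 5 pairs of groups, and all 4 groups enter the interaction. In none of the 6 contrasts did a member pass an adjusted p of 0.05 with edgeR or DESeq2. The share of all tested genes that did was 0% in each with edgeR, and is not given for DESeq2. The 95% interval of a member reached, at the median, 0.43 on the log2 scale to either side of its estimate per pair of groups and 0.61 for the interaction. The whole interval lay within 1 log2 unit of 0 for 79 to 88 members in the 5 pairs of groups and for 59 in the interaction. Below, members at an unadjusted p under 0.05 are described beside the share of all tested genes at that p. For the counts by DESeq2, that share was 3.503%, 3.53%, 1.86%, 3.76%, 5.65% and 6.60% of 35051 genes, in the order of the contrasts below.

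ICI against control asks what checkpoint antibodies alone went with. At an unadjusted p under 0.05 there were 2 members by edgeR (1.79%, where the share of all tested genes was 5.23%) and 3 by DESeq2. The median log2 difference of the members was 0.09, against -0.01 over all genes, and 75 members lay higher (67.0%, beside 48.0% of all genes) and 37 lower. Cacna2d1, an alpha2delta subunit that binds gabapentin, was at 143, 177, 154, 146 and 137 CPM in control and 210, 187, 166, 165 and 150 in ICI mice. The groups overlapped, and the log2 difference was 0.22 (SE 0.10, adjusted p = 0.766 by edgeR), and 0.14 without ICI replicate 1. Kcng3, a silent Kv subunit that modifies other pores, was at 1.76, 2.51, 1.37, 0.692 and 1.81 CPM in control and 4.59, 3.93, 0.953, 3.75 and 4.09 in ICI mice. Only ICI replicate 3 lay within the control range, and the log2 difference was 1.084 (SE 0.51, adjusted p = 0.766 by edgeR). All 10 calcium channel pores and all 8 sodium channel pores had a positive difference, with medians of 0.32 and 0.26. The inward rectifiers lay the other way, 8 of 13 lower with a median of -0.08, as did the K2P channels, 6 of 10 lower with a median of -0.14, and the sodium channel beta subunits were 2 higher and 2 lower. With 4 tissue scores (striatum, dentate gyrus, neocortex and choroid plexus) in the fit, the medians of the inward rectifiers and K2P channels were -0.022 and -0.025. Without the 2 libraries set apart on the first component, 9 of 10 calcium channel pores (median 0.14) and 8 of 8 sodium channel pores were higher. In that fit 9 of 13 inward rectifiers (median -0.12) and 6 of 10 K2P channels (median -0.14) were lower, and no member had an unadjusted p under 0.05.

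Melanoma against control asks what the tumour went with. By edgeR, 1 member was at an unadjusted p under 0.05 (0.893%, beside 5.11% of all tested genes), and by DESeq2 2. The median log2 difference was 0.03, against -0.01 over all genes. Kcna5 was at 3.45, 2.00, 2.10, 1.89 and 1.52 CPM in control and 7.02, 2.05, 14.9, 2.25 and 10.5 in melanoma mice, so 3 melanoma mice lay above every control and the other 2 within their range. The log2 difference was 1.74 (SE 0.50, adjusted p = 0.656 by edgeR). For Scn4b it was 1.56 (SE 0.75, adjusted p = 0.877 by edgeR). The 3 melanoma mice highest in both genes were those with a striatum score above 5, and without the 4 such libraries the differences were -0.037 for Kcna5 and -0.11 for Scn4b. All 10 calcium channel and all 8 sodium channel pores had a positive difference, with medians of 0.21 and 0.16, where 58.0% of the members and 48.0% of all genes did. Of the inward rectifiers 12 of 13 were lower, with a median of -0.09, and of the HCN genes 3 of 4. Without the 2 libraries set apart on the first component, 8 of 10 calcium channel pores (median 0.04) and 6 of 8 sodium channel pores were higher, and 10 of 13 inward rectifiers lower. With the 4 tissue scores in the fit the sodium channel pores were 3 higher and 5 lower (median -0.083), the inward rectifiers 6 higher and 7 lower (median -0.022), and the calcium channel pores all higher (median 0.14). Without the 4 libraries with a striatum score above 5, 4 of the 8 sodium channel pores were higher (median 0.022). In that fit, which kept only replicates 2 and 4 of melanoma, 9 of 13 inward rectifiers were lower (median -0.29) and 9 of 10 calcium channel pores higher (median 0.16).

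Melanoma plus ICI against control compares the combined condition with neither. By edgeR, 3 members were at an unadjusted p under 0.05 (2.68%, beside 2.38% of all tested genes), and by DESeq2 5. The median log2 difference was 0.07, against 0.00 over all genes. Kcnab1, a beta subunit that speeds inactivation of Kv1 channels, was at 96.05, 153, 112.96, 121 and 127 CPM in control and 115, 101, 104.4, 84.7 and 100.2 in melanoma plus ICI mice. The groups overlapped, and the log2 difference was -0.27 (SE 0.13, adjusted p = 1.00 by edgeR). It was -0.33 without the 2 libraries set apart and -0.077 with the 4 tissue scores in the fit. Scn10a, a pore known from sensory neurons, had a log2 difference of 1.68 (SE 0.73), at a level of few counts. It was at 0 to 0.235 CPM in control and 0.0821 to 0.856 in melanoma plus ICI mice. It reached 10 counts in 5 libraries, none of them control (0 to 6 counts), so it met the minimum only through other groups. Its place among the 3 members at an unadjusted p under 0.05 is therefore no support for a difference.

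Melanoma plus ICI against melanoma asks what ICI went with in tumour-bearing mice. By edgeR, 4 members were at an unadjusted p under 0.05 (3.57%, beside 5.5% of all tested genes), and by DESeq2 6. The median log2 difference was 0.03, against 0.02 over all genes. Kcnn2 was at 72.7, 68.7, 56.7, 63.2 and 55.6 CPM in melanoma and 54.2, 49.99, 49.1, 48.9 and 57.6 in melanoma plus ICI mice. Only melanoma plus ICI replicate 5 lay within the melanoma range, and the log2 difference was -0.29 (SE 0.09, adjusted p = 0.825 by edgeR). Kcnn2 was among the most even members, with an SD of 0.17 on the log2 scale over the 20 libraries. It kept differences of -0.29, -0.30 and -0.32 with the 4 tissue scores in the fit, without the 2 libraries set apart on the first component, and without the 4 with a high striatum score. Kcnab1 had a difference of -0.34 (SE 0.13) and Kcnh2, the ERG pore, one of 0.36 (SE 0.14). With the 4 tissue scores these were -0.16 and 0.18.

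Cacna1h was at 236, 164, 163, 200 and 190 CPM in melanoma and 70.7, 160, 90.9, 143 and 131 in melanoma plus ICI mice. The groups did not overlap, as in 1.54% of all tested genes, and no other member was so placed in this contrast. The log2 difference was -0.68 (SE 0.31, adjusted p = 0.825 by edgeR). With the 4 tissue scores it was -0.40, and without the 2 libraries set apart on the first component -0.53.

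Melanoma plus ICI against ICI asks what the tumour went with under treatment, and held the most members at an unadjusted p under 0.05. There were 15 by edgeR (13.4%, beside 8.63% of all tested genes) and 15 by DESeq2. Of these, 14 were lower in melanoma plus ICI mice (12.5%, beside 4.51%), and 1 was higher (0.893%, beside 4.12%), Kcnk5, a K2P pore of low level, at 0.91 (SE 0.34). The median over all members was 0.02, as over all genes, with 57 higher and 55 lower. The lower members included the calcium channel pores Cacna1a, Cacna1e and Cacna1h, and the sodium channel genes Scn3a, Scn8a and Scn3b. They also included the Kv genes Kcnd2, Kcnq3 and Kcns2, the beta subunits Kcnab1 and Kcnab2, the G protein-gated Kcnj6, and Kcnn2. Kcnk5 and Kcns2 were named after their values were seen.

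Cacna1h, a T-type pore that opens near rest and supports burst firing, was at 197, 205, 346, 291 and 134 CPM in ICI mice, against the values of 70.7 to 160 above. Only ICI replicate 5 lay within the melanoma plus ICI range, and the log2 difference was -0.98 (SE 0.31, adjusted p = 0.563 by edgeR). Scn3b was at 229, 265, 386, 303 and 156 CPM in ICI and 137, 190, 73.7, 175 and 178 in melanoma plus ICI mice. The log2 difference was -0.83 (SE 0.28, adjusted p = 0.563 by edgeR), with ICI replicate 5 again within the other range. Kcnq3 was at 196, 230, 216, 229 and 170 CPM in ICI and 115, 151, 161, 140 and 154 in melanoma plus ICI mice. It was the only member whose groups did not overlap here, as in 1.45% of all tested genes, with a difference of -0.53 (SE 0.18, adjusted p = 0.563 by edgeR). The log2 differences of the 11 others ran from -0.91 for Kcnj6 to -0.22 for Kcnn2. Without the 2 libraries set apart, those of Cacna1h, Scn3b and Kcnq3 were -0.83, -0.79 and -0.45.

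Marker scores differed between these groups as well. The dentate gyrus score was 4.86 ± 1.076 for control, 5.04 ± 0.96 for ICI, 4.42 ± 0.81 for melanoma and 3.79 ± 0.73 for melanoma plus ICI mice (SD, n = 5 each), from 2.56 to 6.11 over all libraries. The CA1 score was 6.93, 7.07, 6.91 and 6.44 in the same order. Between ICI and melanoma plus ICI mice the score of pyramidal and granule neurons was 9.32 ± 0.40 and 8.89 ± 0.22. Other lists were higher in melanoma plus ICI mice, meninges at 2.90 ± 0.75 and 3.83 ± 0.54, endothelium and pericytes at 4.74 ± 0.12 and 4.95 ± 0.16, and choroid plexus at 3.83 ± 1.96 and 5.06 ± 1.97. These scores were not tested. With the 4 tissue scores in the fit, 9 members were at an unadjusted p under 0.05 (8.04%, beside 8.36% of all tested genes), 8 of them lower (7.14%, beside 4.28%), and 4 of the 15 were among them, Cacna1e, Cacna1h, Scn3b and Scn8a. The difference of Cacna1h was then -0.61, that of Scn3b -0.23, that of Kcnab1 -0.13 and that of Kcnn2 -0.14. The part of tissue composition in these differences was not tested beyond this fit. Without control replicate 4 and melanoma plus ICI replicate 1 the count was 17 (15.2%, beside 10.1% of all tested genes), and 13 of the 15 were among them.

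**Figure D4:**
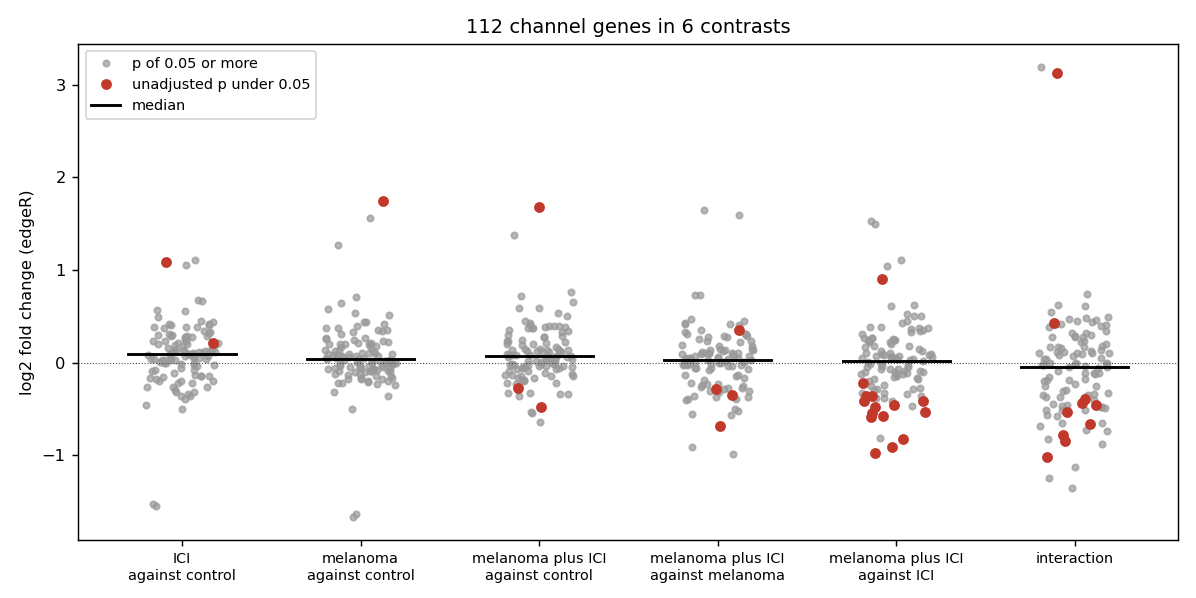
Log2 fold changes of the members by edgeR (vertical axis) in the 6 contrasts, with 1 point per gene, a bar at the median, and members at an unadjusted p under 0.05 in red. Medians lie between -0.04 and 0.09, and the largest number of red points, 15, is in melanoma plus ICI against ICI.

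**Figure D5:**
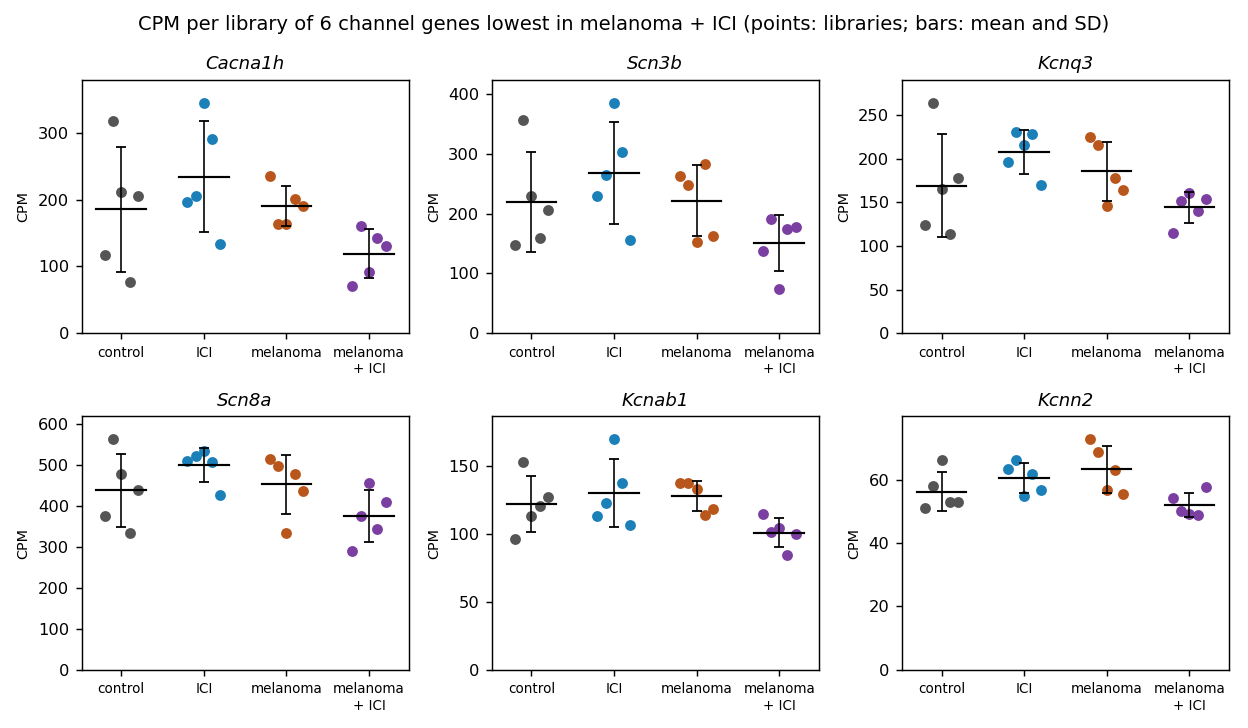
CPM by library (vertical axis) and group of 6 members named in the contrasts, with points for mice and a bar and whiskers for the group mean and SD. In each panel the mean is lowest in the melanoma plus ICI group, and the groups overlap except Kcnq3 between ICI and melanoma plus ICI and Cacna1h between melanoma and melanoma plus ICI.

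The interaction compares the ICI difference in tumour-bearing mice with that in tumour-free mice. By edgeR and by DESeq2, 10 members were at an unadjusted p under 0.05 (8.93%, beside 10.3% of all tested genes), 8 with a negative term (7.14%, beside 4.28%) and 2 with a positive one (1.79%, beside 5.99%). The share of members with a negative term at that p depended on single libraries. It was 2.68% (beside 2.45% of all tested genes) without both libraries set apart on the first component. Leaving out 1 library gave 3.57% without control replicate 1 (beside 2.87%), control replicate 4 (2.53%) or melanoma replicate 1 (2.72%), 4.46% without replicate 1 of melanoma plus ICI (2.51%) or replicate 2 of ICI (3.10%), and 15.2% without control replicate 2 (7.25%). The median was -0.04, against 0.02 over all genes. Kcnn2 had the smallest p, with group means of 56.2, 60.6, 63.4 and 51.97 CPM for control, ICI, melanoma and the combination, and a term of -0.39 (SE 0.13, adjusted p = 0.476 by edgeR). Kcnq3 had a term of -0.66 and Cacna1e one of -0.77 (SE 0.32), and without the 2 libraries set apart these were -0.47 and -0.46. All 10 calcium channel pores had a negative term, with a median of -0.55, 3 of them at an unadjusted p under 0.05, and 7 of 8 sodium channel pores did. All 4 HCN genes and 10 of 13 inward rectifiers had a positive one, where 43.8% of the members and 52.8% of all genes did. With the 4 tissue scores the HCN genes were 1 positive and 3 negative (median -0.055), 8 of 13 inward rectifiers were positive, and all 10 calcium channel pores were negative. Without the 2 libraries set apart on the first component, 8 of the 10 were negative, the median was -0.25 and none of the 10 was at that p. The 8 sodium channel pores had a median of -0.28, and 6 were negative with the scores (median -0.31). Without the 2 libraries set apart 7 were negative (median -0.23), and without the 4 with a striatum score above 5 there were 5 (median -0.10). The 2 positive terms at an unadjusted p under 0.05 were those of Kcnh2, 0.43 (SE 0.20), and Kcnj13, 3.13 (SE 1.44), which followed the choroid plexus score. With the 4 tissue scores, of which choroid plexus is 1, these terms were 0.18 and 0.32. Kcne2 had a term of 3.19 (SE 1.73, adjusted p = 0.491 by edgeR).

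Genes that work with the channels were read from a list of 29, all tested. It held calcium channel beta subunits, genes with Cacng symbols, anchoring proteins and other partners. None passed an adjusted p of 0.05 in any contrast with edgeR. At an unadjusted p under 0.05, 2 were higher in ICI than in control mice, Nalcn and Nrcam (6.90% of the list, beside 5.23% of all tested genes), and 0 were at that p between melanoma and control (beside 5.11%). In melanoma plus ICI mice 1, Fgf14, was higher than in control (3.45%, beside 2.38%), and 1 was higher and 2 were lower than in melanoma (10.3%, beside 5.5%). Against ICI, 5 were lower (17.2%, beside 4.51% lower among all tested genes). They were the calcium channel beta subunits Cacnb1 and Cacnb2, Cacng8, the Kv4 partner Dpp6 and the HCN partner Pex5l. In the interaction 4 had a negative term (13.8%, beside 4.28%), Cacnb1, Cacnb2, Pex5l and Cntnap2. These partner counts are from the main edgeR fit alone. They were not read under the alternatives that moved the member counts, such as the fit with the 4 tissue scores.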

How the data were processed

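The channel members, the gene lists and the tests were chosen with earlier results of these data known. Per the labels, total RNA of 1 hippocampus per mouse was sequenced, and the deposited values are raw counts of reads per gene, 1 table per library, which the authors did not normalise. STAR 2.5.2b and DESeq2 1.16.1 are named in the submitters' processing notes. The genome build, the counting program, the annotation and the use of strand are not given in the sources used here. Of the 49671 gene identifiers, 49412 occur in GENCODE M21 (GRCm38), 45214 with the same start and end, and symbols and biotypes came from there. Identifiers without a symbol held 0.0415% of the counts. Groups and replicate numbers came from the sample titles, all 20 libraries were used, and no pair of libraries of a group agreed within sampling noise.

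Genes were filtered with filterByExpr (minimum count 10, minimum total 15), which left 18427, scaled by TMM (factors 0.9555 to 1.0432) and fitted with edgeR 4.0.16 (limma 3.58.1, R 4.3.3) by quasi-likelihood, with 1 mean per group over all 20 libraries and no covariate. SEs and 95% intervals were derived from that test. CPM is counts divided by the TMM-scaled library size, times 1000000, TPM is scaled by the gene length in the tables, and log2 CPM uses a prior count of 2. Each contrast had its own Benjamini-Hochberg adjustment over all tested genes, at 0.05. The interaction is the ICI difference with tumour minus that without. The intervals cover the spread between libraries, counting error included.

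The text names, in each family, the 3 members highest in TPM, in each contrast the 3 with the smallest p, the members known from other tissue or cells, the 3 most and least variable members and a core list of hippocampal channels. Others were named after their values were seen. Some members under this rule are not reported here, and counts over members include them. The alternatives were size factors of DESeq2 in edgeR, DESeq2 1.42.0, no filter, a fit of just the groups in the contrast, a replicate block, 4 tissue scores as covariates, and leaving out libraries. Promoter sequences are RefSeq windows on GRCm38.p6. Protein sequences were not used here.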

Additional observations from a re-analysis of the deposited data

Results flagged for a closer look

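Within groups of 5, 96 gene and group combinations were checked for a value far from the others (Dixon's gap test at the 95% level), and 7 stood out. Chance flags about 1 in 20 such groups. Melanoma plus ICI replicate 3 was highest of its group for 3 of the 7. Scn4b was at 216 CPM there, against 7.66 to 48.1 in the other 4 mice, and Kcnh4, which is enriched in striatum, at 40.6 against 6.14 to 16.01. Kcnj10, the astrocytic inward rectifier, was at 227 CPM in that library, against 122 to 147. This library also had a striatum score above 5, and the part of that in these values was not tested.

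Kcne2 was at 21.04 CPM in melanoma replicate 4, against 0.213 to 5.47 in the other melanoma mice, and this library had the highest choroid plexus score of its group, 5.96. Kcng3 was at 0.953 CPM in ICI replicate 3, against 3.75 to 4.59. Scn2b, the most even member, was at 279 CPM in melanoma replicate 3, against 317 to 330, and that library had the highest striatum score of all, 6.83. Scn10a was at 0.673 CPM in melanoma replicate 1, against 0.170 to 0.304, a level of few counts.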

How the results depend on the processing

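Under every alternative run, 0 members had an adjusted p under 0.05 in each of the 6 contrasts (edgeR, and DESeq2 as an alternative). The share of all tested genes at that adjusted p was 0% in the main fit and is not given for the alternatives. Those counts of 0 therefore do not set the members apart from other genes. The direction of 36 of the 38 named gene results held under all that could be fitted. The 2 exceptions were Kcna5 and Scn4b in melanoma against control, at -0.037 and -0.11 without the 4 libraries with a striatum score above 5, an alternative added after seeing the data. Counts of members at an unadjusted p under 0.05 moved more, and the share of all tested genes at that p under the same fit follows each in parentheses. In ICI against control the 2 became 0 (4.34%) with no filter, 1 (3.58%) with only the groups compared, 8 (8.80%) with the 4 tissue scores, 0 (4.87%) without control replicate 4 and melanoma plus ICI replicate 1, and 1 (4.45%) without the 4 high-striatum libraries. In melanoma against control the 1 became 3 (4.09%), 5 (6.26%), 2 (5.16%) and 3 (2.76%) with only the groups compared, with the scores, without the pair of libraries and without the 4, and 2 (3.53%) with DESeq2. In melanoma plus ICI against control the 3 became 0 (1.78%) with the scores, 8 (3.84%) without the pair and 5 (1.86%) with DESeq2. In melanoma plus ICI against melanoma the 4 became 10 (7.30%) with only the groups compared, 7 (7.92%) with the scores, 7 (7.11%) without the pair and 8 (4.95%) without the 4. In melanoma plus ICI against ICI the 15 became 9 (8.36%) with the scores. The median log2 difference of the members was -0.069, -0.12 and -0.15 with the scores in melanoma plus ICI against melanoma, against ICI and in the interaction, and -0.038 without the 4 libraries in melanoma plus ICI against control. The cause of these moves was not tested. Without the 2 libraries farthest from the median score, r was 0.183 for Kcnj10 and 0.107 for Kcnk13.

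Leaving out each library in turn gave counts of 0 to 10 in ICI against control (10 without control replicate 2), 1 to 4 in melanoma against control (4 without melanoma replicate 4), 0 to 10 in melanoma plus ICI against control (10 without control replicate 1, 0 without control replicate 2 or 5), 3 to 12 against melanoma (12 without melanoma replicate 3), 12 to 20 against ICI and 4 to 20 in the interaction (20 without control replicate 2, 4, 5 and 6 without melanoma replicate 1, ICI replicate 2 and ICI replicate 3). Over the same fits the share of all tested genes ran from 3.23% to 9.47%, 3.80% to 6.76%, 1.595% to 5.85%, 3.91% to 9.15%, 4.83% to 12.6% and 7.11% to 15.6% in that order. The median in melanoma plus ICI against control then ran from -0.036 (without melanoma plus ICI replicate 3) to 0.095 (without control replicate 1).

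The labels number the mice 1 to 5 in every group without saying that a number is shared. Same-numbered libraries had correlations of -0.41 to 0.64 in their deviations from the group means, above 0.1 in 11 of 30 pairs, so the numbers were not taken as pairs. With the replicate number as a block, no member passed the adjusted threshold and the unadjusted counts were 2, 1, 2, 8, 16 and 13 in the order of the contrasts above, beside 4.98%, 4.89%, 1.87%, 5.27%, 7.98% and 9.38% of all tested genes. The fit with only the groups compared has no interaction. Some members fell below its filter, Scn10a among them in melanoma plus ICI against control, so its counts are over 109 or 110 members.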
